A study of Mus musculus with 90 samples.

Results

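The 10 antiviral effector genes Ifit1, Ifit2, Ifit3, Ifit3b, Rtp4, Rsad2, Oasl1, Oasl2, Oas1a and Mx1 were followed by symbol in a table of 53697 genes, through chronic exposure to interferon γ (IFNγ) and renewed stimulation of 2 mouse tumour lines. Interferons switch on such genes through the interferon-stimulated response element (ISRE), a short promoter motif bound by ISGF3, a complex that contains STAT2 and IRF9, and by other IRF proteins. Type I interferons signal mainly through ISGF3, whereas IFNγ signals mainly through a different motif, the GAS element. The proteins block viruses at several steps. IFIT proteins bind foreign RNA and hinder its translation, OAS enzymes make 2′-5′-linked oligoadenylates that activate the nuclease RNase L, Rsad2 (viperin) makes a chain-terminating nucleotide, Mx1 is a dynamin-like GTPase, and Rtp4 is a receptor transporter protein that is itself interferon-induced.

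RNA was measured by 3′ digital gene expression, which counts reads from the 3′ ends of transcripts, in YUMM2.1 melanoma cells and CT26 colon carcinoma cells. Each line had 15 groups of 3 replicates, 45 samples in all. Naive cells received 50 IU/mL IFNγ for 2 h or 24 h at 0 weeks, other cells were grown with 50 IU/mL IFNγ for 1, 2 or 3 weeks and collected without rechallenge or 2 h or 24 h after fresh IFNγ, and control cultures, labelled as given BSA in place of IFNγ, were collected at 0, 1, 2 and 3 weeks. The labels give no allele or clone for either line and describe the replicates only as triplicate experiments. The study states in general that its replicates were biologically independent, without saying so of these cultures, so the p-values measure the spread between these samples.

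Total counts per sample spanned 274719 to 3161276 for YUMM2.1 and 295157 to 2205285 for CT26. In YUMM2.1, 1 sample (3 weeks without rechallenge, replicate 3) and in CT26 2 samples (1 week and 3 weeks without rechallenge, replicate 3 of each) lay below 25% of the median total of their line. Of 7 melanocyte markers, Tyrp1 was at 0 in every YUMM2.1 sample and the summed level of the list was 21.9 to 47.2 counts per 1000000 (CPM) over the groups, against 3.40 to 9.59 CPM in CT26. Of 8 colon epithelium markers, Epcam, Cdh1 and Vil1 were at 0 in every CT26 sample, and the list summed to 57.1 to 128 CPM there. Only 1 of the 7 melanocyte markers had over 3 counts in every YUMM2.1 sample, and 2 of the 8 colon markers in every CT26 sample. The 8 leukocyte markers summed to at most 6.86 CPM in any group of YUMM2.1 and 2.92 CPM in CT26, with Cd3e and Adgre1 among those at 0 throughout both lines.

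The 4 Ifit genes lie side by side on chromosome 19 (GRCm38), with Ifit2 at chr19:34550694-34576419, Ifit3 at chr19:34583531-34588731, Ifit3b at chr19:34607970-34613401 and Ifit1 at chr19:34640871-34650009. Oasl2 (chr5:114896936-114912234), Oasl1 (chr5:114923240-114937915) and Oas1a (chr5:120896256-120907521) are on chromosome 5, Rtp4 (chr16:23520291-23614222) and Mx1 (chr16:97447035-97462907) on chromosome 16 and Rsad2 (chr12:26442746-26456452) on chromosome 12. RefSeq promoter windows of 300 bases around the start site (GRCm38.p6) were at hand for 8 of the 10 genes. An ISRE core, taken as a pair of GAAA half-sites in the same direction with 2 free bases (N) between them and searched on both strands (TTTC half-sites when read on the other), was present in the windows of 5 of these 8 genes (62.5%), against 3.99% of 27025 genes with a window. The genes were chosen as ISRE-driven, so the share restates that choice. Nor was it particular to them, since the core was also found in 5 of 7 other IFIT, OAS and Mx genes (71.4%), 7 of 14 genes listed as GAS-driven (50.0%) and 11 of 19 type I and III interferon genes (57.9%). The promoter stretches that hold it are shown because they carry the element by which the group is defined. Bases in capitals are the matched motif, and each stretch is written 5′ to 3′ on the strand of its gene.
Ifit1, chr19:34640777-34640821, plus strand: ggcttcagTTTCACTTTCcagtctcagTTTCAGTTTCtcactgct
Ifit3, chr19:34583365-34583424, plus strand: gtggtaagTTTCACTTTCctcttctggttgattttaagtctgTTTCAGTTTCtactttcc
Ifit3b, chr19:34607761-34607820, plus strand: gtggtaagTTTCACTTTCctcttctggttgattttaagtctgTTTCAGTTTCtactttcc
Rsad2, chr12:26456555-26456580, minus strand: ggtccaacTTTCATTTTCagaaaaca
Oas1a, chr5:120907526-120907553, minus strand: cttctcggGAAATGGAAACTGAAAatct

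Ifit1, Ifit3 and Ifit3b each held 2 separate matches, Rsad2 held 1, and Oas1a held 2 that overlap. The stretches of Ifit3 and Ifit3b were identical over all 60 bases. The windows of Ifit2, Oasl1 and Oasl2 held no match to these letters. The GAS pattern TTCNNNGAA, a palindrome that reads alike on both strands, was found in Ifit2 and Oas1a, against 9.55% of all genes, and in no other of the 8 windows. These are matches of letters, not measured binding.

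Near-identical copies limit how reads are assigned to some of these genes. Of the 31-base words in the last 500 bases of the Oas1a transcripts, 70% also occurred in Oas1g. The corresponding share was 24.0% for Ifit3 against Ifit3b and 4.59% for Ifit3b against Ifit3. Counts split between these genes are therefore uncertain, and each call for Ifit3 and Oas1a held when its pair was summed. With Oas1a and Oas1g summed, 2 calls were gained in CT26, at 1 week and 24 h after rechallenge at 1 week.

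In untreated cells, the lines differed in which of the genes they expressed. Oas1a was absent from the 3 untreated YUMM2.1 samples (0 counts each) and stood at 32.9, 28.9 and 23.8 CPM in CT26. Since whole cultures were measured, fewer expressing cells and less RNA per cell cannot be told apart. Over all 45 YUMM2.1 samples Oas1a was counted in 4, all exposed to IFNγ for 2 or 3 weeks and none with more than 4 counts. A pooled count of 0 allows up to 3 counts, which is 0.369 to 1.05 CPM in a YUMM2.1 group, and these floors cover counting error only.

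Oasl1, an OAS-like protein known to restrain Irf7 translation, was likewise counted mainly in CT26, with 39.1, 43.3 and 37.6 CPM there against 0.535, 1.23 and 1.24 CPM in YUMM2.1. It never passed 9 counts in a YUMM2.1 sample. Ifit2 went the other way, at 15.5, 24.6 and 19.2 CPM in YUMM2.1 and 4.11, 6.90 and 2.98 CPM in CT26. No sample of one line overlapped the other for these 3 genes, but the share of all genes without overlap was not computed.

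In a fit of both lines, 6 of the 9 tested genes differed between untreated YUMM2.1 and CT26, where 46% of all genes did (edgeR's quasi-likelihood test, adjusted p under 0.05), so that share says little about the antiviral genes. Oas1a, Oasl1 (log2 difference -5.45 ± 0.76, SE), Ifit1 (-1.67 ± 0.48), Oasl2 (-1.81 ± 0.79) and Rtp4 (-1.43 ± 0.34) were lower in YUMM2.1 and Ifit2 (1.86 ± 0.43) was higher. The filter on low counts left out Rsad2, Oasl1, Oas1a and Mx1 within YUMM2.1, and Mx1 within CT26, so that 6 and 9 of the genes were tested in the respective lines. These filters keep a gene that is high in any group of at least 3 samples, and the counts below therefore refer to the tested genes.

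The first exposure to IFNγ raised few of the tested effectors at 2 h and most of the tested ones at 24 h. Summed over the 10 genes, the level in YUMM2.1 was 39.5 ± 9.78 CPM (mean ± SD, n = 3) before, 101 ± 9.34 CPM at 2 h and 189 ± 22.2 CPM at 24 h. In CT26 it was 105 ± 12.2, 130.1 ± 4.90 and 760.2 ± 36.1 CPM. Of the tested genes, 2 of 6 rose at 2 h in YUMM2.1, against 0.24% of all genes, and 1 of 9 in CT26, against 0.235%. At 24 h, 4 of 6 had risen in YUMM2.1 (0.855% of all genes) and 8 of 9 in CT26 (1.77%). Their median log2 fold change at 24 h was 2.76 in YUMM2.1 and 3.65 in CT26, beside 0.02 and -0.02 over all tested genes. From 2 h to 24 h, 2 of 6 rose in YUMM2.1 (Rtp4 and Ifit3, 0.553% of all genes) and 8 of 9 in CT26, all but Ifit2 (1.33%). DESeq2 called 5 of the 9 there.

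**Figure D1:**
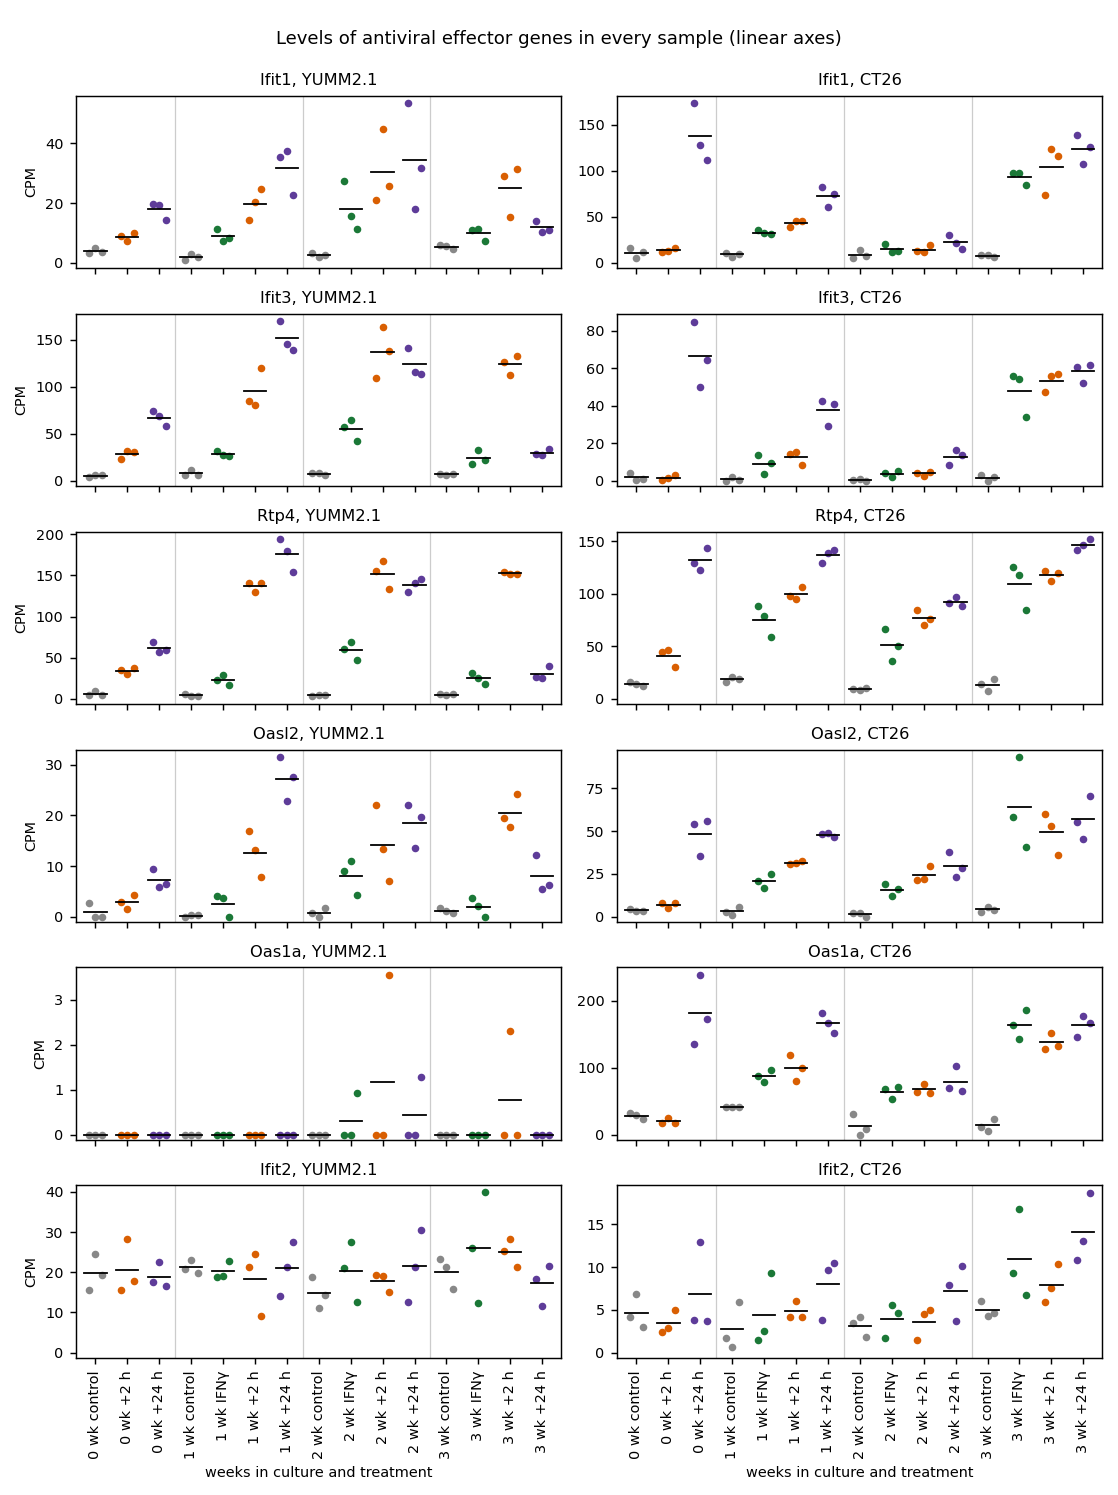
Levels in CPM (linear y axes) of 6 of the genes in every sample of YUMM2.1 (left) and CT26 (right). Points are the 3 replicates of each group, coloured by treatment (grey control, green chronic IFNγ without rechallenge, orange 2 h and purple 24 h after IFNγ), and black bars are means. Rtp4 in YUMM2.1 after 3 weeks lies between 151 and 154 CPM at 2 h and between 25.2 and 40.2 CPM at 24 h, Oas1a is near 0 throughout YUMM2.1, and Ifit2 in that line lies between 9.06 and 40.0 CPM over all groups.

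Rtp4 had risen at 2 h in both lines. In YUMM2.1 it stood at 4.28, 9.85 and 4.96 CPM before, 35.4, 29.9 and 36.9 CPM at 2 h and 68.8, 56.7 and 58.9 CPM at 24 h. In CT26 the values were 15.8, 13.8 and 11.9, then 44.9, 46.5 and 30.02 and then 129, 123 and 144 CPM. In neither line did the 3 time points overlap. The log2 fold change over untreated cells was 2.59 ± 0.31 (SE, edgeR adjusted p = 2.13e-09) at 2 h and 3.38 ± 0.30 (3.40e-14) at 24 h in YUMM2.1. It was 1.62 ± 0.23 (3.29e-06) and 3.28 ± 0.22 (1.39e-16) in CT26, where Rtp4 was the one gene of the 9 to pass at 2 h.

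Ifit3, which forms complexes with Ifit1, had risen at 2 h in YUMM2.1 and only at 24 h in CT26. Its YUMM2.1 samples read 3.75, 6.16 and 6.20 CPM before, 23.2, 31.4 and 30.5 CPM at 2 h and 74.6, 68.4 and 58.5 CPM at 24 h. The CT26 samples read 4.11, 0.627 and 1.19 CPM before, 0.599, 1.41 and 3.13 CPM at 2 h and 84.8, 50.1 and 64.3 CPM at 24 h. The 2 h samples of CT26 thus overlapped the untreated ones, whereas those of YUMM2.1 were all higher. The log2 fold change at 2 h was 2.43 ± 0.34 (SE, adjusted p = 4.18e-07) in YUMM2.1 and -0.08 ± 0.76 (1.00) in CT26. The difference between these responses, 2.49 ± 0.81, did not pass (adjusted p = 1.000), in a contrast added after the values had been seen that called none of the 9 genes (edgeR, 2 at an unadjusted p under 0.05, 0 by DESeq2, 0% of all genes). At 24 h the fold changes were 3.63 ± 0.34 (6.27e-14) and 5.05 ± 0.56 (2.33e-12).

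Ifit1 followed at 24 h. It rose from 3.21, 4.92 and 3.72 CPM to 19.8, 19.5 and 14.5 CPM in YUMM2.1 (log2 fold change 2.17 ± 0.47, adjusted p = 0.00220) and from 15.8, 5.65 and 11.3 CPM to 173, 128 and 111 CPM in CT26 (3.65 ± 0.29, 1.94e-14). At 2 h it read 8.86, 7.47 and 9.93 CPM in YUMM2.1, with every sample above the untreated ones but an adjusted p of 1.00, and 12.0, 12.7 and 16.3 CPM in CT26, where the groups overlapped. Ifit3b, the close copy of Ifit3, rose at 24 h in YUMM2.1 (3.01 ± 0.63, adjusted p = 2.55e-04). In CT26 Ifit3b had 1 count over the 3 untreated libraries and 20, 7 and 24 counts at 24 h, a ratio of 97.4 (counting interval 16.7 to 3923), with an adjusted p of 4.11e-07.

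Ifit2 stood apart from its neighbours on chromosome 19. In YUMM2.1 it read 15.5, 24.6 and 19.2 CPM before IFNγ and 17.5, 22.5 and 16.7 CPM at 24 h, with a log2 fold change of -0.06 ± 0.33 (adjusted p = 1.000). In CT26 it read 4.11, 6.90 and 2.98 CPM before and 3.85, 12.9 and 3.74 CPM at 24 h (0.46 ± 0.60, 0.854), on 2 to 11 counts per sample. The groups overlapped in both lines, and Ifit2 passed in no comparison within either line. In chronic CT26 cells at 3 weeks it read 9.26, 16.8 and 6.78 CPM, above each control of that week (6.07, 4.26 and 4.58 CPM, 1.01 ± 0.55, adjusted p = 0.273) and each chronic sample at 2 weeks (1.36 ± 0.59, 0.204). Its precision in CT26 was low, with an SE at 24 h of 0.60 on the log2 scale.

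The OAS genes rose mainly in CT26. Oas1a, an oligoadenylate synthetase, rose from 32.9, 28.9 and 23.8 CPM to 135, 238 and 173 CPM at 24 h (log2 fold change 2.70 ± 0.31, adjusted p = 6.88e-09), after 17.4, 24.7 and 18.1 CPM at 2 h. Oasl1 rose to 166, 142 and 146 CPM (1.93 ± 0.17, 6.51e-12). At 24 h every sample of both genes lay above the untreated ones, whereas at 2 h Oasl1 lay within their range and 2 of the 3 Oas1a samples lay below it. Oasl2, an OAS-like protein that retains synthetase activity, rose in CT26 to 53.9, 35.6 and 56.1 CPM (3.67 ± 0.39, 2.07e-11). In YUMM2.1 it read 2.68, 0 and 0 CPM before and 9.33, 5.86 and 6.41 CPM at 24 h without passing (2.51 ± 0.81, 0.0794). Oas1a had 0 counts in all 9 YUMM2.1 samples at 0 weeks.

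Rsad2 also rose in CT26. It had 0, 0 and 2 counts in the untreated samples and 9, 3 and 23 counts at 24 h, a ratio of 33.4 (counting interval 8.59 to 287) with an adjusted p of 2.05e-04. In YUMM2.1 it had 1 count over the untreated samples and 0 over the naive samples at 2 h and 24 h. The highest Rsad2 count in any YUMM2.1 sample was 5. After rechallenge at 1 week, Rsad2 had 2, 2 and 3 counts at 24 h against 0 in the 3 chronic samples. The ratio to a floor of 3 counts over the group was 2.82, with the counts at 24 h taken as exact. Oasl1 in YUMM2.1 had 9, 3 and 2 counts at 2 h of that rechallenge against 2, 0 and 0 before, a ratio of 6.95 (counting interval 1.60 to 63.0). In CPM the groups did not overlap in either comparison. Oasl1 was lower without overlap in naive YUMM2.1 cells at 24 h and from 2 to 3 weeks, at 0 against 4 pooled counts each. All these counts are near the floor, and the share of all genes without overlap was not computed. Mx1, which carries a defective allele in most inbred mouse strains, stayed between 0 and 6 counts in every sample of both lines. In naive YUMM2.1 cells at 24 h it had 2, 1 and 1 counts against 0 in the untreated samples, with no overlap. The ratio to a floor of 3 counts over the group was 1.36, and the counts were too few to show a rise. In CT26 at 3 weeks it had 6, 1 and 0 counts without rechallenge against 0 in the controls. That is a ratio of 5.33 to the same floor, again without an interval, but most of the counts came from 1 library and the groups overlapped.

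A test of the 24 h response between the lines called none of the 9 genes, although 5 had an unadjusted p under 0.05 (edgeR; DESeq2 also called 0), and 0.087% of all genes passed. For Rtp4 the difference was 0.07 ± 0.39. For Ifit1 (-1.53 ± 0.57) and Ifit3 (-1.46 ± 0.64) the estimates were lower in YUMM2.1. Oas1a and Oasl1 were among the 9 and did not pass (adjusted p = 1.000 and 0.312), but groups at 0 in YUMM2.1 leave no interpretable fitted difference for them.

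**Figure D2:**
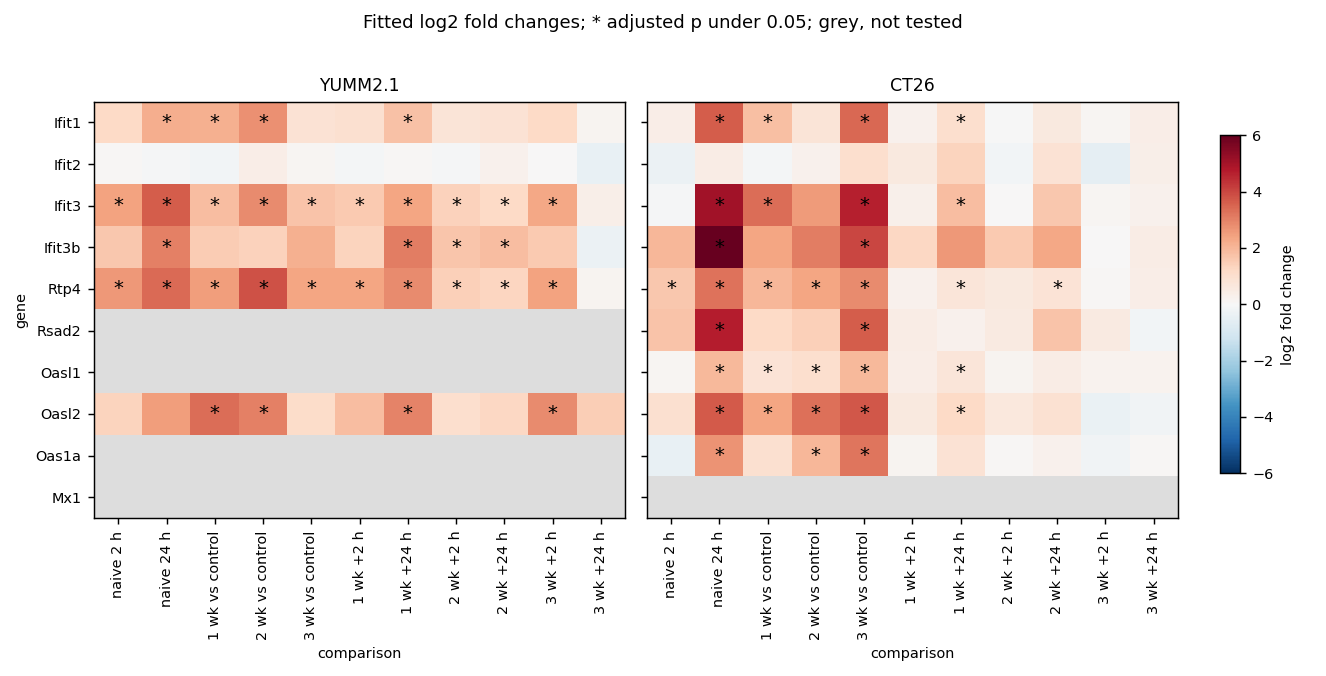
Fitted log2 fold changes of the 10 genes (rows) in 11 comparisons (columns) in YUMM2.1 and CT26. Naive columns are against the 0-week control, week columns against the control of the same week, and columns with + against chronic cells of that week without rechallenge. Asterisks mark adjusted p under 0.05 and grey rows were not tested. The Ifit2 row has no asterisk, and the columns for rechallenge at 3 weeks hold asterisks only in YUMM2.1 at 2 h.

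Without rechallenge, several of the genes stayed above the controls of the same week in both lines, and the course over the weeks differed. In YUMM2.1 the summed level without rechallenge was 88.9 ± 7.28 CPM (SD, n = 3) at 1 week, 169 ± 38.6 CPM at 2 weeks and 92.2 ± 4.20 CPM at 3 weeks. For CT26 the means were 306 ± 22.7, 214 ± 29.0 and 631 ± 30.9 CPM. The YUMM2.1 course was thus highest at 2 weeks and the CT26 course lowest there and highest at 3 weeks. Among the controls, the sum lay between 32.8 and 40.4 CPM in YUMM2.1 and between 63.4 and 118 CPM in CT26. None of the tested genes passed between the 3-week and 0-week controls (edgeR, 0 of 6 in YUMM2.1 and 2 of 9 in CT26 at an unadjusted p under 0.05, and 0 in both by DESeq2), where 0.521% and 0.916% of all genes did. In CT26 every 3-week control lay below every 0-week control for Oasl1 (ratio 0.617, counting interval 0.487 to 0.779) and Oas1a (0.546, 0.407 to 0.729). Neither gene passed, these intervals cover counting error only, and the share of all genes without overlap was not computed. The CT26 control sum was 105 and 118 CPM at 0 and 1 weeks and 63.4 and 72.9 CPM at 2 and 3 weeks.

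**Figure D3:**
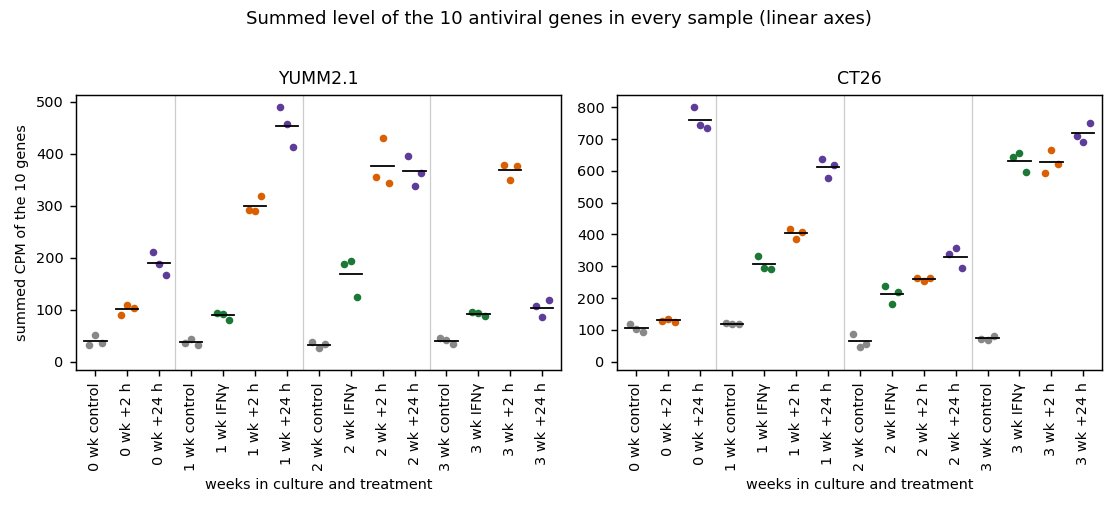
Summed CPM of the 10 genes in every sample (linear y axes) of YUMM2.1 (left) and CT26 (right). Points are replicates coloured as in the plot of single genes and black bars are group means. At 3 weeks the YUMM2.1 mean was 92.2 CPM without rechallenge, 368 CPM at 2 h and 104 CPM at 24 h, whereas the CT26 means were 631, 627 and 717 CPM.

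In YUMM2.1, 4 of 6 tested genes were higher than the control at 1 week (Rtp4, Ifit3, Ifit1 and Oasl2), 4 at 2 weeks (again Rtp4, Ifit3, Ifit1 and Oasl2) and 2 at 3 weeks (Rtp4 and Ifit3). Oasl2 rested on 2 pooled control counts at 1 week, with a ratio of 14.1 (counting interval 3.27 to 127), and its samples overlapped. At 2 weeks it rested on 3 pooled control counts, with a ratio of 8.43 (counting interval 2.66 to 42.8). The share of all genes called higher was 0.657%, 0.897% and 0.72%. Rtp4 read 23.4, 28.7 and 16.5 CPM at 1 week, 61.0, 68.6 and 47.2 CPM at 2 weeks and 31.5, 24.8 and 18.2 CPM at 3 weeks, and no control sample of any week passed 9.85 CPM. Its log2 fold changes over the controls of the same week were 2.50 ± 0.29, 3.80 ± 0.37 and 2.35 ± 0.28 (SE, adjusted p at most 1.94e-08). Ifit3 read 32.1, 27.1 and 26.9 CPM at 1 week, 57.1, 64.9 and 42.5 CPM at 2 weeks and 17.9, 33.0 and 21.8 CPM at 3 weeks, with fold changes of 1.84 ± 0.26, 2.81 ± 0.32 and 1.73 ± 0.29.

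The 2-week samples of both genes lay above all samples of the other weeks without rechallenge. From 2 to 3 weeks, Ifit3 (-1.22, adjusted p = 0.0138) and Rtp4 (-1.14, 0.00676) fell, 2 of 6 genes against 0.073% of all genes. Without the shallow library at 3 weeks the log2 changes were -1.19 and -1.06 and the adjusted p values 0.0537 and 0.0506, so that neither passed. From 1 to 2 weeks only Rtp4 of the 6 rose (1.23 ± 0.20, adjusted p = 2.46e-04), where 0.229% of all genes did.

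In CT26, 5 of 9 genes were higher than the control at 1 week (Rtp4, Oasl2, Ifit1, Ifit3 and Oasl1), 4 at 2 weeks (Rtp4, Oasl2, Oas1a and Oasl1) and 8 at 3 weeks, all but Ifit2. The background was 0.658%, 0.928% and 3.44% of all genes. Ifit1 read 35.7, 32.2 and 31.01 CPM at 1 week, 20.8, 12.0 and 12.7 CPM at 2 weeks and 98.1, 98.2 and 84.7 CPM at 3 weeks, with controls of 8.35, 8.52 and 6.41 CPM at 3 weeks. Its log2 fold changes were 1.80 ± 0.33 (SE, adjusted p = 3.68e-04), 0.76 ± 0.38 (0.491) and 3.43 ± 0.32 (2.38e-12). Ifit1 thus passed at 1 and 3 weeks but not at 2.

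Ifit3 in CT26 read 13.6, 3.86 and 9.30 CPM at 1 week, 4.34, 1.85 and 5.18 CPM at 2 weeks and 55.5, 54.3 and 33.9 CPM at 3 weeks. Oas1a read 87.9, 78.5 and 96.1 CPM at 1 week, 68.5, 52.8 and 71.4 CPM at 2 weeks and 164, 142 and 186 CPM at 3 weeks. At 3 weeks all treated samples of Ifit3 and Oas1a lay above the samples of the earlier weeks without rechallenge and above the controls. The Oas1a controls were uneven at 2 weeks, with 45, 0 and 10 counts, and read 12.1, 5.68 and 23.8 CPM at 3 weeks. The 3-week log2 fold changes were 4.67 ± 0.60 for Ifit3 (adjusted p = 1.34e-10), 3.23 ± 0.36 for Oas1a (9.14e-10), 3.73 ± 0.37 for Oasl2 (3.77e-12), 2.81 ± 0.22 for Rtp4 (5.56e-14) and 1.96 ± 0.19 for Oasl1 (7.38e-11). Rsad2 and Ifit3b, with 3 pooled control counts each, rose by ratios of 16.8 (counting interval 5.03 to 87.4) and 19.8 (counting interval 6.07 to 102).

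From 2 to 3 weeks, 8 of 9 genes rose in CT26, against 1.6% of all genes, with the largest fitted changes in Ifit3b (3.81), Ifit3 (3.49 ± 0.47, SE), Rsad2 (3.04) and Ifit1 (2.52 ± 0.29). Ifit3b rested on 3 pooled counts at 2 weeks, with a ratio of 16.0 (counting interval 4.91 to 82.6). When the change of the controls over the same weeks was subtracted, only Ifit1 passed (2.68 ± 0.50, adjusted p = 0.00913), where 0.106% of all genes did. The same subtraction left none of the 6 called in YUMM2.1 (edgeR, 3 at an unadjusted p under 0.05, 0 by DESeq2, 0.0104% of all genes). From 1 to 2 weeks none of the 9 passed in CT26 (4 at an unadjusted p under 0.05, 1 by DESeq2, 0.341% of all genes). All 8 calls from 2 to 3 weeks held without the shallow libraries. The change from 2 to 3 weeks differed between the lines for 5 of 9 genes (Ifit1, Ifit3, Ifit3b, Rtp4 and Oasl2), each lower in YUMM2.1, against 0.406% of all genes in a contrast added after the values had been seen. The difference was -4.75 ± 0.51 for Ifit3 (adjusted p = 1.12e-12) and -2.18 ± 0.30 for Rtp4 (1.07e-07). In the comparison of 3-week cells with their controls, Ifit1 (-2.58 ± 0.55, 0.0105) and Ifit3 (-3.02 ± 0.65, 0.00282) rose less in YUMM2.1 than in CT26, 2 of 9 genes against 0.0774% of all genes.

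After rechallenge at 3 weeks, several of the genes passed as higher in YUMM2.1 at 2 h and none in CT26 at 2 h or 24 h. In YUMM2.1, Rtp4 went from 31.5, 24.8 and 18.2 CPM to 154, 151 and 152 CPM 2 h after fresh IFNγ and was at 26.3, 25.2 and 40.2 CPM at 24 h. Ifit3 went from 17.9, 33.0 and 21.8 CPM to 126, 113 and 133 CPM at 2 h and 28.1, 27.7 and 34.0 CPM at 24 h. Oasl2 went from 3.71, 2.06 and 0 CPM to 19.5, 17.6 and 24.2 CPM at 2 h and 12.3, 5.54 and 6.19 CPM at 24 h. For all 3 genes, every 2 h sample lay above every sample before rechallenge and every sample at 24 h.

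The log2 fold changes at 2 h were 2.43 ± 0.21 for Rtp4 (SE, adjusted p = 1.63e-12), 2.32 ± 0.24 for Ifit3 (2.57e-10) and 2.84 ± 0.67 for Oasl2 (0.00347), 3 of 6 genes against 0.876% of all genes. At 24 h none of the 6 passed against cells without rechallenge (edgeR, 1 at an unadjusted p under 0.05, 0 by DESeq2), nor did any of the 9589 genes tested in that line, of which 351 had an unadjusted p under 0.05. Of the 6, the gene under that unadjusted level was Oasl2 (1.49 ± 0.70, adjusted p = 1.00), and its 3 samples at 24 h lay above those before rechallenge. The 24 h values were below the 2 h values for Rtp4 (-2.25 ± 0.18, adjusted p = 4.72e-13), Ifit3 (-1.99 ± 0.20, 4.36e-10) and Ifit3b (-1.92 ± 0.46, 0.00966), 3 of 6 genes against 1.14%, a comparison that was also added after the values had been seen.

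At 1 and 2 weeks the 24 h level in YUMM2.1 stayed above that of chronic cells without rechallenge. At 1 week Rtp4 read 140.3, 129.6 and 141 CPM at 2 h and 194, 180.0 and 154 CPM at 24 h, and at 2 weeks 156, 168 and 133 CPM at 2 h and 130.4, 141 and 145 CPM at 24 h. Ifit3 read 169, 145 and 139 CPM at 24 h in week 1 and 141, 116 and 113 CPM in week 2. No sample of these overlapped the chronic cells of the same week. At 1 week, 2 genes rose 2 h after rechallenge (Rtp4 and Ifit3, 0.501% of all genes) and 3 at 2 weeks (with Ifit3b, 0.417%). After 24 h, 5 of 6 had risen at 1 week, all but Ifit2 (1.12%), and 3 at 2 weeks (Rtp4, Ifit3 and Ifit3b, 0.532%).

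In CT26, few of the genes passed after rechallenge. None of the 9 passed 2 h after rechallenge at 1, 2 or 3 weeks (edgeR, 1, 2 and 0 genes at an unadjusted p under 0.05, 0 by DESeq2), where 0.376%, 0.305% and 0.0117% of all genes did. Even so, every 2 h sample lay above those without rechallenge for Ifit1, Ifit3b, Rtp4, Oasl1 and Oasl2 at 1 week. The same held for Ifit3b, Rtp4, Oasl1 and Oasl2 at 2 weeks and for no gene at 3 weeks. The Rtp4 ratios were 1.23 at 1 week and 1.51 at 2 weeks. The share of all genes without overlap was not computed. At 3 weeks Rtp4 read 126, 118 and 84.7 CPM before, 122, 112 and 120.1 CPM at 2 h and 142, 146 and 152 CPM at 24 h, and the groups before and at 2 h overlapped. Ifit1 read 98.1, 98.2 and 84.7 CPM before, 73.5, 124 and 116 CPM at 2 h and 139, 108 and 126 CPM at 24 h, beside 173, 128 and 111 CPM in naive cells after 24 h. The 3-week log2 change at 2 h was 0.08 ± 0.18 (SE) for Rtp4 and 0.13 ± 0.23 for Ifit1. At 24 h every sample of Rtp4 and Ifit1 lay above every sample before rechallenge, with pooled ratios of 1.25 and 1.27, without passing. After 24 h, 5 of 9 had risen at 1 week (Rtp4, Ifit1, Ifit3, Oasl1 and Oasl2, 0.928% of all genes), 1 at 2 weeks (Rtp4, 0.599%) and 0 at 3 weeks (1 at an unadjusted p under 0.05, 0 by DESeq2 and 0 of all 8516 genes). Between 2 h and 24 h of rechallenge at 3 weeks none of the 9 passed either (0 at an unadjusted p under 0.05, 0 by DESeq2, 0.0352% of all genes). Without the shallow 1-week library, 2 genes, Ifit3 and Oasl2, were called at 1 week instead of 5.

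The 2 h response at 3 weeks was larger in YUMM2.1 than in CT26 for Rtp4 (2.32 ± 0.28, adjusted p = 8.38e-09), Ifit3 (2.21 ± 0.38, 1.09e-04) and Oasl2 (3.16 ± 0.68, 0.00111), 3 of 9 genes against 0.174% of all genes, in a contrast added after the values had been seen.

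**Figure D4:**
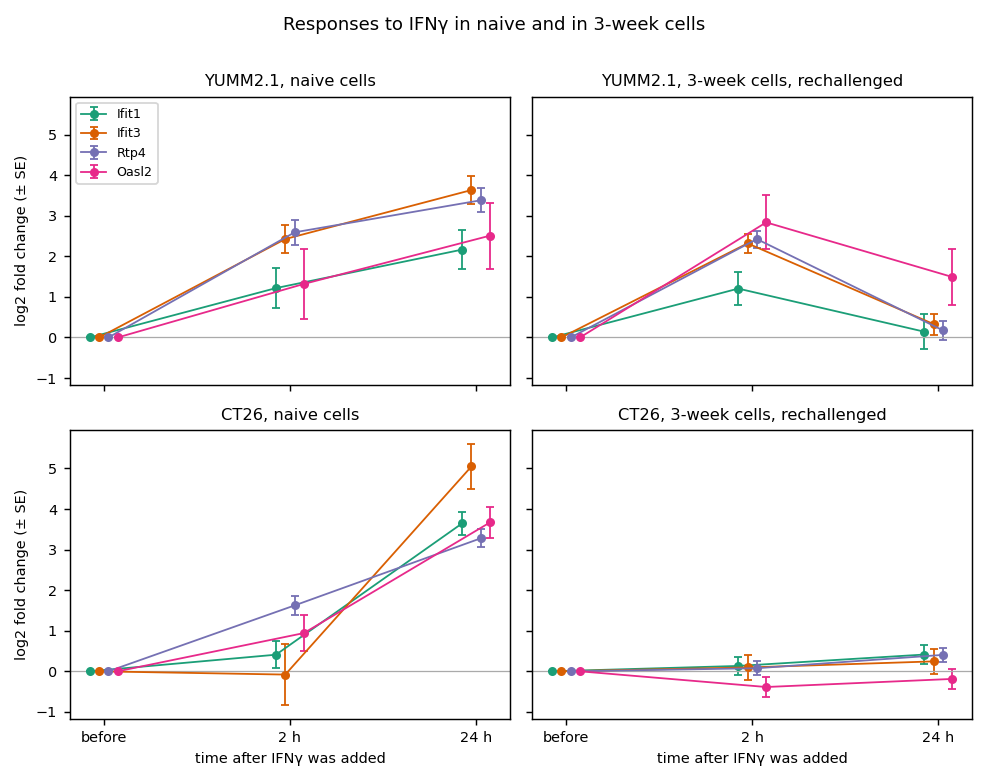
Log2 fold changes (± SE, fitted over 3 against 3 samples) of Ifit1, Ifit3, Rtp4 and Oasl2 before and at 2 h and 24 h after IFNγ (evenly spaced on the x axis, not to scale), in naive cells against the 0-week control (left) and in 3-week cells against 3-week cells without rechallenge (right). Each naive point is higher at 24 h than at 2 h in both lines. YUMM2.1 cells at 3 weeks rise at 2 h, by 2.43 for Rtp4, and are at 0.17 for Rtp4 and 1.49 for Oasl2 at 24 h, and the CT26 points at 3 weeks stay between -0.39 and 0.41.

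Set against naive cells, the 24 h response at 3 weeks was smaller for 3 of 6 genes in YUMM2.1 and 8 of 9 in CT26, with 0.615% and 1.09% of all genes called lower. For Rtp4 the difference was -3.21 ± 0.38 (SE, adjusted p = 7.47e-09) in YUMM2.1 and -2.87 ± 0.28 (1.04e-10) in CT26. Both responses are set against cells of their own week. In level at 24 h, none of 9 genes in 3-week CT26 cells passed against naive cells (edgeR, 1 at an unadjusted p under 0.05, 0 by DESeq2, 2.48% of all genes), with a difference of 0.04 ± 0.17 for Rtp4 and -0.23 ± 0.21 for Ifit1. The 3-week YUMM2.1 cells stood lower for Rtp4 (-1.02 ± 0.19, 0.00142) and Ifit3 (-1.17 ± 0.21, 6.36e-04), 2 of 6 against 0.584%.

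At 2 h no difference in response from naive cells passed for the 6 genes in YUMM2.1 (edgeR, 0 at an unadjusted p under 0.05, 0 by DESeq2, 0.115% of all genes), and the difference for Rtp4 was -0.17 ± 0.37. The level of the 3-week cells at 2 h exceeded that of naive cells at 2 h for 5 of 6 genes, all but Ifit2, where 5.02% of all genes were higher. In CT26 the 2 h response was smaller for Rtp4 alone of the 9 (-1.55 ± 0.29, adjusted p = 0.00207, 0.2% of all genes lower), and the level at 2 h was higher than in naive cells for 8 of 9 (4.29%).

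The surrounding pathway was described from lists compiled by hand, with results of these data already known. Irf1, which binds ISRE-like sites and is an early IFNγ target, rose by 4.07 at 2 h and 2.82 at 24 h in YUMM2.1 and by 3.46 and 2.31 in CT26 on the log2 scale (edgeR adjusted p at most 1.07e-08), and so was highest at the earlier time. Stat2 rose at 24 h in CT26 (3.14, adjusted p = 1.25e-05) and read 2.55 in YUMM2.1 without passing (0.0548). Irf7 rose at 24 h in CT26 (3.79) and did not pass the filter on low counts in YUMM2.1. Irf9, the DNA-binding subunit of ISGF3, passed in neither line at 24 h (0.42 and 0.24).

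Most tested genes of the list compiled as GAS-driven, which includes guanylate-binding proteins, had risen by 2 h. The list names follow general knowledge and not the promoter windows, where the GAS pattern was found in 6 of 14 genes of that list and 6 of 20 of the other ISRE-driven list, and the ISRE core in 7 of 14 and 7 of 20. In naive cells at 2 h, 7 of 11 tested GAS-driven genes rose in YUMM2.1 and 7 of 12 in CT26, with medians of 3.03 and 2.33. Over all tested genes the shares were 0.24% and 0.235%. Of the other ISRE-driven antiviral genes, 1 of 16 and 0 of 22 rose, with medians of 0.28 and 0.24. At 24 h these became 6 of 16 and 17 of 22, and 9 of 11 and 11 of 12 for the GAS list. Over all tested genes the shares were then 0.855% and 1.77%. Zbp1, a sensor of Z-form nucleic acid, rose at 24 h by 6.30 in the melanoma line and 5.59 in the carcinoma line, and read 0.45 and 0.73 at 2 h. Gbp2, a guanylate-binding protein of the GAS list, rose by 3.94 and 2.31 already at 2 h. Among the 10 effectors the corresponding counts at 2 h were 2 of 6 and 1 of 9, and the lists were not tested against each other.

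At 3 weeks in YUMM2.1, 9 of 11 GAS-driven genes rose 2 h after rechallenge and 2 of 16 other ISRE-driven genes did, and 9 of 11 and 1 of 16 were lower at 24 h than at 2 h. Of all genes, 0.876% rose and 1.14% were lower in the respective comparisons. Zbp1 changed by 0.08 at 2 h. In CT26, neither list had a gene that rose at 2 h at 3 weeks, where only 0.0117% of all genes passed. From 2 to 3 weeks without rechallenge in CT26, 8 of 12 and 12 of 22 rose, against 1.6% of all genes.

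The remaining IFIT, OAS and Mx relatives were counted mainly in CT26. None of the 13 passed the filter on low counts in YUMM2.1, where their sum was at most 7.83 CPM in any group, against 18.0 to 155 CPM in CT26. All 5 tested in CT26 rose in naive cells at 24 h (1.77% of all genes), among them Oas1g (3.09, adjusted p = 3.43e-06), Oas2 (2.41, 0.00370) and Oas3 (2.51, 3.76e-04). Of 19 type I and type III interferon genes, all were at 0 in every YUMM2.1 sample, and 3 (Ifnb1, Ifna4 and Ifna13) had 5 counts in all over the 45 CT26 samples, never more than 1 in a sample.

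Over the 15 group means of a line, the profile of the tested antiviral genes was most like that of Serpina3f, Gbp2, Gm12250, Gm12185 and Gbp4 in YUMM2.1 (Pearson's r of group mean log2 CPM 0.974 to 0.961) and of Oas2, Samd9l, Ifi44, Stat2 and Isg15 in CT26 (0.984 to 0.971). The 2 lists of 5 shared no gene, which does not measure a difference between the lines. Oas2 was at 0 in every YUMM2.1 sample and could not be ranked there. The mean profile was also taken over different genes, 6 in YUMM2.1 and 9 in CT26. Among the antiviral genes, Ifit2 had an r of 0.225 with the mean profile in YUMM2.1 and 0.789 in CT26, and the others lay between 0.925 and 0.987 over both lines. Each antiviral gene is itself part of that mean, which raises its r. These values are descriptions over groups that share libraries and treatments.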

How the data were processed

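3′ digital gene expression libraries covered 15 groups of 3 samples in each of 2 mouse lines. The authors deposited raw counts per Ensembl gene and sample, one table for the series, without pooling replicates. The submitters' processing notes name Salmon 0.13.1 and build mm10, and the study's methods name an import with tximport. The annotation, the use of molecular identifiers and whether counts were rounded from estimates are not given in the sources used here. The study discarded some outlier samples of each line, more from CT26 than from YUMM2.1, without naming them. Every sample was kept here, so those outliers are included. All 53697 rows were read and 53668 identifiers were matched to symbols.

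The 10 genes and all lists were chosen with earlier results of these data known. All 10 are named, with up to 4 examples of each list (lowest p in naive cells at 24 h in either line) and the 5 genes per line whose group means correlated best with the mean standardized profile of the tested members, 6 in YUMM2.1 and 9 in CT26. Irf9 and the interferon and marker genes were named after their values were seen. Counts were filtered with filterByExpr, scaled by TMM and fitted over the 15 groups of a line with edgeR 4.0.16 (glmQLFit, glmQLFTest; R 4.3.3, limma 3.58.1), and differences between lines in a fit of both. The tests covered 9589 genes of YUMM2.1, 8516 of CT26 and 10339 of both. p-values were two-sided and adjusted by Benjamini-Hochberg over all tested genes with a threshold of 0.05. Comparisons at one week share the samples without rechallenge, and both naive comparisons share the 0-week control. CPM is the count per 1000000 of the sample's total. Ratios of pooled counts carry exact 95% intervals, which cover counting error only. A count of 0 was set to a floor of 3, and such ratios have no interval and are not lower bounds. Likeness used log2 CPM with a prior count of 2.

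The median total count was 1403265 in YUMM2.1 and 1318011 in CT26. In 90 comparisons of replicate pairs the counts differed by more than sampling noise (chi-square per degree of freedom at least 1.96). No pairing by replicate number was seen, since in 0 of 18 comparisons per line did every same-numbered pair deviate together with a correlation over 0.1, and the mean correlation was -0.00100 in YUMM2.1 and 0.00795 in CT26. This check cannot exclude effects shared by replicate number. Without rechallenge, replicate 3 had the lowest total of its group at 1 and 3 weeks in both lines. It reached 34.5% and 19.6% of the line median in YUMM2.1 and 24.5% and 22.4% in CT26. Alternatives were DESeq2 1.42.0, library totals, no filter, a replicate block, each replicate left out, no low-depth samples, compared groups only, the 0-week control, and paralogs summed, of which the sum of Oas1a and Oas1g was added after seeing the data. Scripts were tested on simulated data. Figures were drawn with matplotlib 3.10.9 in Python 3.11.15.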

Additional observations from a re-analysis of the deposited data

Results flagged for a closer look

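Several changes differed between conditions or lines by a test of the difference itself, an interaction contrast in edgeR with an adjusted p under 0.05, on the log2 scale. The 24 h response of 3-week cells was smaller than that of naive cells in YUMM2.1 for Rtp4 (-3.21), Ifit3 (-3.31) and Ifit3b (-3.36). In CT26 it was smaller for Ifit1 (-3.23), Ifit3 (-4.81), Ifit3b (-5.72), Rtp4 (-2.87), Rsad2 (-4.89), Oasl1 (-1.72), Oasl2 (-3.86) and Oas1a (-2.64). The values of Ifit3b and Rsad2 rest on untreated groups with 1 and 2 pooled counts. The 2 h response of Rtp4 in CT26 was smaller at 3 weeks than in naive cells (-1.55), and Ifit1 rose more from 2 to 3 weeks in chronic CT26 cells than in the controls (2.68).

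Between the lines, written as YUMM2.1 minus CT26, the 3-week increase over the control differed for Ifit1 (-2.58) and Ifit3 (-3.02). The change from 2 to 3 weeks without rechallenge differed for Ifit1 (-3.33), Ifit3 (-4.75), Ifit3b (-4.20), Rtp4 (-2.18) and Oasl2 (-3.43). The 2 h response to rechallenge at 3 weeks differed for Rtp4 (2.32), Ifit3 (2.21) and Oasl2 (3.16). The last 2 of these contrasts were added after the values had been seen. Line, culture and library preparation cannot be told apart in them, and no cause was tested.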

How the results depend on the processing

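Of 534 counts of called effectors recomputed under the alternatives, 481 stayed within 1.5 times the reported count, and no log2 fold change of a called gene changed sign, 1322 keeping their side of the threshold and 131 losing it. With DESeq2, the count became 2 instead of 1 for YUMM2.1 from 1 to 2 weeks, 5 instead of 8 for CT26 from 2 h to 24 h, 1 instead of 0 for CT26 from 1 to 2 weeks, 2 instead of 1 for the CT26 change from 2 to 3 weeks less the controls and 2 instead of 1 for CT26 24 h after rechallenge at 2 weeks. Without the filter on low counts it became 1 instead of 2 for YUMM2.1 from 2 h to 24 h, 2 instead of 1 from 1 to 2 weeks, and in CT26 1 instead of 0 from 1 to 2 weeks and 2 instead of 1 for 24 h after rechallenge at 2 weeks. Library totals gave 2 instead of 1 for YUMM2.1 from 1 to 2 weeks, and Ifit3 and Ifit3b summed gave 2 instead of 1 for CT26 24 h after rechallenge at 2 weeks. With the compared groups alone in the fit, YUMM2.1 counts fell to 1 of 2 from 2 h to 24 h, 2 of 4 at 1 week, 0 of 1 from 1 to 2 weeks, 0 of 2 from 2 to 3 weeks and 3 of 5 for the 2 h level at 3 weeks, CT26 to 3 of 5 for 24 h after rechallenge at 1 week, and the line difference at 3 weeks over control to 1 of 2. Against the 0-week control the 1-week count in YUMM2.1 was 2 of 4. Without the low-depth samples it was 0 of 2 in YUMM2.1 from 2 to 3 weeks and 2 of 5 in CT26 24 h after rechallenge at 1 week. The cause was not tested.

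With 1 replicate number left out in turn, the YUMM2.1 counts ran from 0 to 1 from 2 h to 24 h, 2 to 3 at 1 week, 2 to 4 at 2 weeks, 1 to 2 at 3 weeks, 0 to 1 from 1 to 2 weeks, 0 to 2 from 2 to 3 weeks, 3 to 5 for the 2 h level and 0 to 2 for the 24 h level of 3-week against naive cells. In CT26 they ran from 2 to 3 at 1 week, 5 to 7 from 2 to 3 weeks, 0 to 1 for that change less the controls, 1 to 2 and 0 to 1 for 24 h after rechallenge at 1 and 2 weeks, and 0 to 1 for the 2 h response at 3 weeks less naive. The line difference ran from 0 to 1 for 3 weeks over control and 3 to 4 from 2 to 3 weeks. These fits have fewer samples. The replicate block, run although no pairing by number was seen, moved no count by over 1.5 times, with 5 instead of 4 in YUMM2.1 at 24 h and 3 instead of 2 for the 24 h level at 3 weeks. Levels scaled by TMM stayed within the replicate spread in 290 of 300 group means. The filter on low counts left out Mx1 in both lines and Rsad2, Oasl1 and Oas1a in YUMM2.1, and without it edgeR called none of them in those lines, where 7 of their differences had an unadjusted p under 0.05.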
